A study of Mus musculus with 9 samples.

Results

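The enzymes of the pentose phosphate pathway and the cytosolic isocitrate dehydrogenase Idh1 were followed in the liver transcriptome of Wistar rats. The members were fixed by symbol as Pgls, Pgd, Tkt, Taldo1, Rpia, Rpe, H6pd and Idh1, and 7 of these 8 were matched in the count table, which lists 19686 genes. Pgd, the 6-phosphogluconate dehydrogenase, was not matched and was not analysed here. Each of the 7 matched members had its symbol in a single row, and all 7 passed the filter on low counts in every comparison. Livers of 9 male Wistar rats were sequenced, 3 from each of the control, model and DSS groups. Per the study's methods, the control rats drank purified water and the model rats a 15% fructose solution, both with saline by gavage. The DSS rats drank the same fructose solution and were given Danggui-Shaoyao-San, a herbal formula, by gavage at 1.8 g/kg. The labels call this group DSS, and the study took only the 50% methanol extract (HME) to transcriptomics. The treatments lasted 8 weeks. The labels give no age, and they name the mouse as the organism beside the Wistar rat as the strain, while all gene identifiers are rat ones. The species was taken to be rat.

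The pentose phosphate pathway starts from glucose-6-phosphate and has an oxidative and a non-oxidative arm. The oxidative arm reduces NADP to NADPH and yields ribulose-5-phosphate. The non-oxidative arm turns this sugar into ribose-5-phosphate for nucleotides, or returns it to glycolysis through transketolase and transaldolase. In liver, NADPH is used by fatty acid and cholesterol synthesis, by the cytochrome P450 system and by the reduction of glutathione. Idh1 and malic enzyme are further cytosolic sources of NADPH, and H6pd supplies it inside the endoplasmic reticulum.

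The total counts per library ranged from 14345819 to 26837227. Levels are given in CPM, the library-scaled count after TMM normalization, as mean ± SD over 3 rats. They are compared between groups and not between genes, since no gene lengths were used. A gene passed the test when its FDR was 0.01 or lower and its log2 fold change reached 0.5 in either direction, as the study required. The FDR comes from edgeR's quasi-likelihood test on the 6 libraries of the comparison, adjusted over all genes tested. In whole liver, fewer cells that express a gene and less RNA per cell cannot be told apart. All 6 hepatocyte markers were expressed, with a summed level between 126000 and 205000 CPM. The 7 markers of leukocytes and Kupffer cells summed to between 271 and 639 CPM in the control rats, between 223 and 441 CPM in the model rats and between 287 and 412 CPM in the DSS rats.

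Tkt, which encodes transketolase, fell in the DSS group against the control group, and it was the only member that passed the test in any comparison. The other enzymes of the non-oxidative arm, Taldo1, Rpia and Rpe, stood lower in all DSS rats than in all model rats without passing the test. H6pd, the dehydrogenase of the endoplasmic reticulum, stood higher in all fructose-fed rats than in all control rats, also without passing. Of the 7 members, 1 passed in the DSS group against control, where 1.48% of the 12633 genes tested did. At an unadjusted p under 0.05 there were 5 members (24.3% of all genes), and DESeq2 called 1 (6.09%). Between the model and control groups 0 of 7 passed with edgeR, where 0.0801% of 12486 genes did. Here 1 member, H6pd, had an unadjusted p under 0.05 (13.2% of all genes), and DESeq2 called 0 (2.05%). Between the DSS and model groups 0 of 7 passed with edgeR, where 0.136% of 12502 genes did. There, 4 members had an unadjusted p under 0.05 (8.02% of all genes), and DESeq2 called 1, Tkt (1.18%). The members' median log2 fold change was 0.28 for model against control, -0.32 for DSS against model and -0.30 for DSS against control. Over all genes tested the medians were 0, 0 and -0.01.

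**Figure D1:**
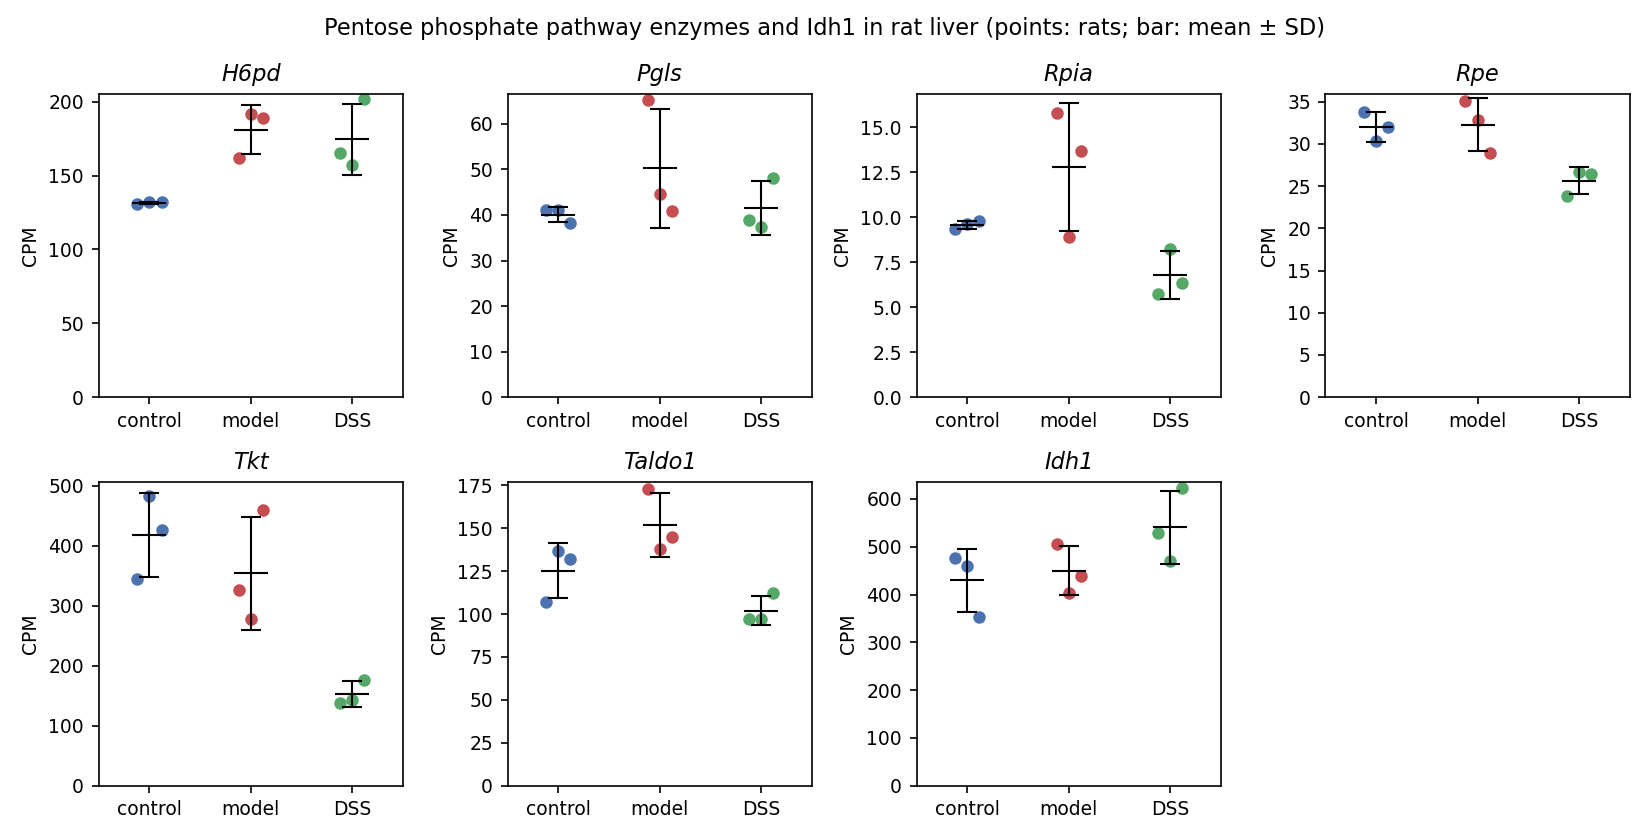
Level in CPM (vertical axis, starting at 0) of the 7 matched members in the control, model and DSS groups. Each point is 1 rat and the bar shows the mean ± SD of 3 rats; for Tkt the DSS rats lie between 138 and 177 CPM, below every model rat and every control rat.

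In the oxidative arm, H6pd (ENSRNOG00000017523) encodes hexose-6-phosphate dehydrogenase, which runs the first reactions of the same pathway inside the endoplasmic reticulum. Its levels were 131, 132 and 132 CPM in the control rats, 162, 192 and 189 CPM in the model rats and 165, 157 and 202 CPM in the DSS rats. All model rats and all DSS rats were above all control rats, while the model and DSS rats overlapped. Against control, its log2 fold change was 0.46 for model (standard error 0.126, FDR 0.165 from edgeR) and 0.41 for DSS (standard error 0.124, FDR 0.0812). With DESeq2 the FDR was 0.0453 and 0.0366. Between the DSS and model groups it was -0.04, with a 95% interval from -0.39 to 0.30.

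Pgls (ENSRNOG00000018326), the 6-phosphogluconolactonase that hydrolyses the lactone made in the oxidative arm, averaged 40.1 ± 1.55, 50.2 ± 13.1 and 41.5 ± 5.84 CPM in control, model and DSS rats. The rats of the 3 groups overlapped. Model replicate 1, at 65.2 CPM, lay above all other rats, which were between 37.3 and 48.2 CPM. Its log2 fold change for model against control was 0.33 (95% interval -0.11 to 0.76, FDR 0.511 from edgeR), and 0.08 without model replicate 1.

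In the non-oxidative arm, Rpia (ENSRNOG00000005576) encodes the isomerase that forms ribose-5-phosphate, the precursor of nucleotides. It was at 9.34, 9.62 and 9.79 CPM in the control rats, at 15.8, 8.88 and 13.7 CPM in the model rats and at 5.71, 8.26 and 6.36 CPM in the DSS rats. The DSS rats lay below all model and all control rats, and the model rats were spread on both sides of the control rats. For model against control, Rpia had a log2 fold change of 0.42 (95% interval -0.10 to 0.95, FDR 0.484 from edgeR). For DSS it was -0.91 against model (standard error 0.258, FDR 0.354) and -0.50 against control (standard error 0.171, FDR 0.109). Between 105 and 369 reads were counted for Rpia in a library, the fewest of the members.

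Rpe (ENSRNOG00000038085) encodes the epimerase that turns ribulose-5-phosphate into xylulose-5-phosphate, a substrate of transketolase. Its levels were 33.8, 30.3 and 32.0 CPM in the control rats, 35.1, 32.8 and 28.9 CPM in the model rats and 23.8, 26.7 and 26.5 CPM in the DSS rats. All DSS rats were below all rats of the other groups, and the model and control rats overlapped. Rpe differed between model and control by 0.01 on the log2 scale (95% interval -0.30 to 0.32). For DSS the value was -0.32 against model (standard error 0.137, FDR 0.615 from edgeR) and -0.32 against control (standard error 0.107, FDR 0.101).

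Tkt (ENSRNOG00000016064), which encodes the enzyme that moves carbon pairs between sugar phosphates, was at 344, 484 and 427 CPM in the control rats. The model rats were at 326, 278 and 460 CPM, and the DSS rats at 138, 143 and 177 CPM. The DSS rats were all below the other 6 rats, and the model and control rats overlapped. Against the control group, Tkt fell by 1.46 on the log2 scale in the DSS group (standard error 0.163, FDR 0.00183 from edgeR), a level 2.75-fold lower. Leaving out any 1 rat gave values from -1.58 to -1.33 at an FDR from 0.00233 to 0.00916, and Tkt passed in each of these fits. The difference of Tkt between DSS and model was -1.21 on the log2 scale (standard error 0.213, FDR 0.0738 from edgeR, 3.04e-05 from DESeq2). Leaving out any 1 rat there gave values from -1.36 to -0.97 at an FDR from 0.045 to 0.311 with edgeR. Between the model and control groups it was -0.24 (95% interval -0.74 to 0.26, FDR 0.686 from edgeR).

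Taldo1 (ENSRNOG00000018367), the transaldolase that works beside transketolase, was at 107, 137 and 132 CPM in the control rats. It was at 173, 138 and 145 CPM in the model rats and at 97.2, 96.9 and 112 CPM in the DSS rats. The model rats were above all control and all DSS rats, and the DSS rats overlapped the control rats. Taldo1 had a log2 fold change of 0.28 for model against control (95% interval -0.08 to 0.64, FDR 0.501 from edgeR). For DSS it was -0.57 against model (standard error 0.144, FDR 0.256) and -0.30 against control (standard error 0.128, FDR 0.188).

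Idh1 (ENSRNOG00000015020) makes NADPH in the cytosol from isocitrate, outside the pentose phosphate pathway. It was at 476, 459 and 353 CPM in the control rats, 505, 404 and 439 CPM in the model rats and 529, 470 and 622 CPM in the DSS rats. The rats of the 3 groups overlapped. For model against control, Idh1 had a log2 fold change of 0.07 (95% interval -0.32 to 0.45). For DSS it was 0.27 against model (-0.10 to 0.65) and 0.33 against control (-0.02 to 0.68), with an FDR of 0.777 and 0.235 from edgeR.

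**Figure D2:**
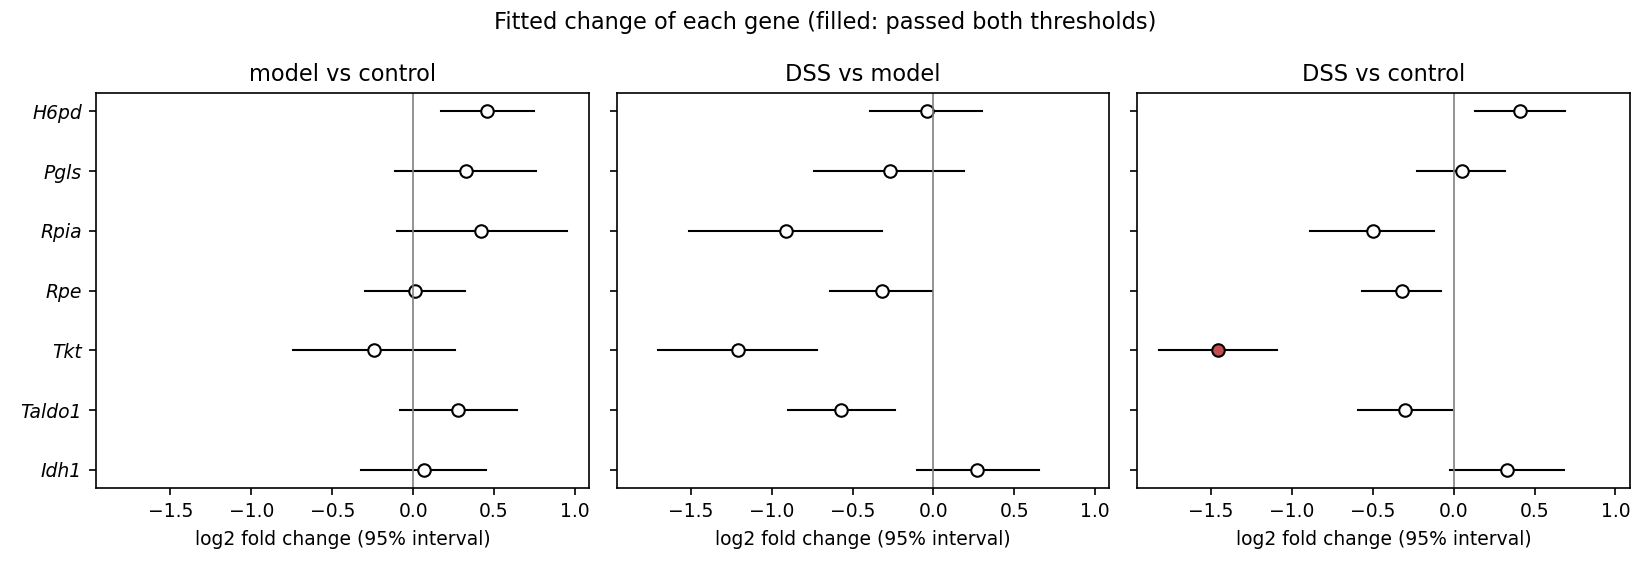
Log2 fold change (horizontal axis) with its 95% interval for the 7 members, from the edgeR fit of each comparison. A filled point passed both thresholds; this holds for Tkt in the DSS group against control, at -1.46.

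The order of the group means differed between the members, and some of these orders rest on means that lay close together. Tkt was highest in the control group and lowest in the DSS group, with a fold of 2.74 between these means. Taldo1, Rpia and Rpe were highest in the model group and lowest in the DSS group, with folds of 1.49, 1.89 and 1.26. Pgls and H6pd were highest in the model group and lowest in the control group, with folds of 1.25 and 1.38, and Idh1 was highest in the DSS group, 1.26-fold above control. Rpe was at 32.2 ± 3.13 CPM in model and 32.0 ± 1.70 CPM in control rats, which sets no order between these groups. The same holds for Pgls in control and DSS rats (40.1 ± 1.55 and 41.5 ± 5.84 CPM). It also holds for H6pd in model and DSS rats (181 ± 16.7 and 175 ± 24.3 CPM). The 4 enzymes of the non-oxidative arm were lower in every DSS rat than in every model rat, as were 7.86% of all genes tested, and 0 of 7 members were higher in this way (6.17%). Between DSS and control, Tkt, Rpia and Rpe were lower and H6pd was higher without overlap, where 15.2% and 14.9% of the genes were. Between model and control, Taldo1 and H6pd were higher without overlap, where 11.1% of the genes were, and 0 members were lower (9.94%). Each group enters 2 of the comparisons, so these counts are not independent of each other.

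The 3 markers of dividing cells (Mki67, Top2a and Cdk1) were at a low level, and 0 of them passed the test in any comparison. These summed to between 0.816 and 3.31 CPM in the DSS rats, to between 4.84 and 10.3 CPM in the model rats and to between 2.75 and 6.09 CPM in the control rats. In this sum the DSS rats lay below all model rats, as they did for 7.86% of all genes tested, and overlapped the control rats. The part of dividing cells in the lower levels of Tkt, Taldo1, Rpia and Rpe in the DSS group was not tested. The 6 markers of stellate cells and fibroblasts summed to between 161 and 175 CPM in the DSS rats and to between 140 and 155 CPM in the control rats, without overlap, and the model rats, at 132 to 182 CPM, overlapped both. Between DSS and control, 14.9% of all genes tested were higher without overlap, and 0 of these 6 markers passed the test in any comparison. The part of stellate cells and fibroblasts in the differences between DSS and control was not tested. The sums for the other cell types measured overlapped between the groups.

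Ratios of counts within a library do not depend on the scaling of the libraries. Of these, 5 were computed after the values were seen, and they depend on the lengths of the transcripts, so only their differences between libraries can be read. The ratio of Tkt to Taldo1 was 3.21, 3.53 and 3.23 in the control rats, 1.88, 2.01 and 3.17 in the model rats and 1.42, 1.47 and 1.58 in the DSS rats. It was lower in all DSS rats than in all other rats, and lower in all model rats than in all control rats, with model replicate 3 close to the control rats. The mean log2 ratio of Tkt to Taldo1 differed by -1.16 between the DSS and control groups and by -0.62 between the DSS and model groups. Each of these had p = 0.1 in an exact two-sided permutation test of 3 rats against 3, which is the smallest p this design allows.

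The ratio of Tkt to Rpia averaged 43.6 ± 6.76, 28.5 ± 6.91 and 23.1 ± 5.35 in control, model and DSS rats (SD, n = 3 rats). Both the model rats and the DSS rats were below all control rats. The mean log2 ratio of Tkt to Rpia differed from control by -0.63 in the model group and by -0.93 in the DSS group. The model difference had p = 0.1 in the exact permutation test. The DSS rats overlapped the model rats, with a difference of -0.30 in the mean log2 ratio between DSS and model (p = 0.4 in the exact permutation test). The ratio of Rpia to Rpe, at 0.300 ± 0.0207, 0.399 ± 0.111 and 0.263 ± 0.0402, overlapped in every comparison.

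The ratio of H6pd to Pgls was 3.19, 3.22 and 3.44 in the control rats. It was 2.48, 4.30 and 4.63 in the model rats and 4.24, 4.20 and 4.20 in the DSS rats. The DSS rats were above all control rats, and the model rats were spread on both sides of both groups. The ratio of Idh1 to Tkt averaged 1.05 ± 0.294, 1.32 ± 0.320 and 3.55 ± 0.276 in control, model and DSS rats (SD, n = 3 rats), with the DSS rats above all others. For DSS against control, the ratios of H6pd to Pgls, Idh1 to Tkt and Tkt to Rpia also had p = 0.1 in the exact permutation test.

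**Figure D3:**
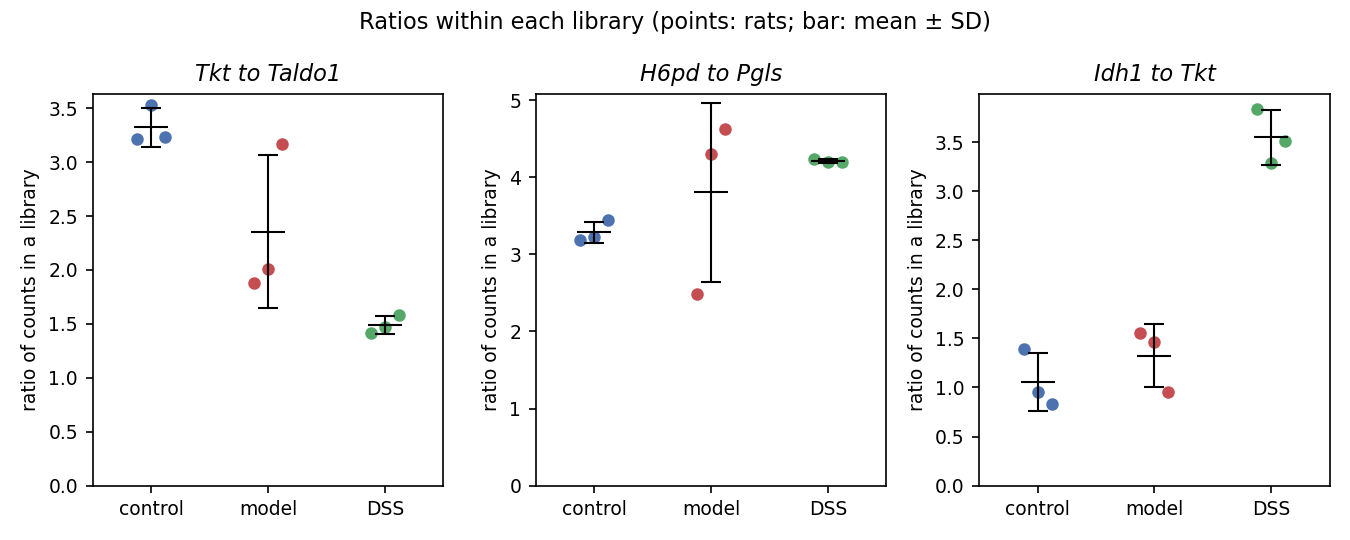
Ratio of read counts within each library (vertical axis, starting at 0) for Tkt to Taldo1, H6pd to Pgls and Idh1 to Tkt. Each point is 1 rat and the bar shows the mean ± SD of 3 rats; the ratio of Tkt to Taldo1 has means of 3.32, 2.35 and 1.49 in the control, model and DSS groups.

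The genes whose profile was most like that of Tkt were searched among 7081 genes with a mean of at least 10 CPM. The measure was the root mean square difference of the log2 CPM, centred for each gene, over the 9 libraries. The nearest was Dlat, the acetyltransferase subunit of pyruvate dehydrogenase, at a difference of 0.188. Dlat averaged 51.9 ± 10.3, 41.7 ± 6.32 and 18.6 ± 1.21 CPM in control, model and DSS rats. Next came Lgalsl, Tm6sf2, AC109891.1 and Pdk1, at 0.224, 0.231, 0.241 and 0.262. Pdk1 encodes a kinase that inhibits pyruvate dehydrogenase, and it was at 74.8 ± 3.79, 59.3 ± 10.8 and 34.6 ± 0.606 CPM in the 3 groups. The other members were farther from Tkt, between 0.474 for Rpia and 0.816 for Idh1.

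The list of further pathway and ribose phosphate genes described here held 9 measured genes, and 0 of them passed by edgeR or by DESeq2 in any comparison. For DSS against model, 8 of the 9 had a negative log2 fold change, with a list median of -0.08. The list's medians were 0.12 for model against control and -0.05 for DSS against control. At an unadjusted p under 0.05, there was 1 gene for model against control, 1 for DSS against model and 2 for DSS against control. Prpsap1, which encodes a protein associated with the synthetase of phosphoribosyl pyrophosphate, averaged 69.3 ± 1.54, 78.1 ± 3.87 and 59.2 ± 2.06 CPM in control, model and DSS rats. Its groups did not overlap, and its lowest FDR was 0.158. Idnk, a gluconokinase that makes 6-phosphogluconate, was at 3.93, 5.20 and 5.13 CPM in the control rats, 7.37, 6.05 and 7.16 CPM in the model rats and 6.96, 5.78 and 6.67 CPM in the DSS rats. All fructose-fed rats were above all control rats, and the log2 fold change of Idnk against control was 0.54 for model (FDR 0.328 from edgeR) and 0.45 for DSS (FDR 0.183). Shpk (sedoheptulokinase), Rbks (ribokinase), Prps1 and Prps2 overlapped in every comparison.

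On the list drawn up for other suppliers of NADPH and NAD kinases, Me1, the cytosolic malic enzyme, fell in the DSS group against model. It was at 131, 97.7 and 110 CPM in the model rats and at 26.3, 28.6 and 24.8 CPM in the DSS rats, with no overlap. It was the only gene of 11 tested on this list that passed in that comparison, at -2.08 on the log2 scale (standard error 0.156, FDR 0.0019 from edgeR). The call of Me1 was lost without DSS replicate 1, 2 or 3 (FDR 0.0209, 0.0132 and 0.0156) and without model replicate 3 (FDR 0.0127), and also with all 9 libraries in one fit (FDR 0.0233). Against control its log2 fold change was -2.24 (FDR 0.0323), and without control replicate 3 it was -2.56 (FDR 0.00042). Nadk, the cytosolic NAD kinase that makes NADP, averaged 301 ± 27.3, 265 ± 3.12 and 223 ± 6.20 CPM in control, model and DSS rats. Its groups did not overlap, and its log2 fold change for DSS against control was -0.44 (FDR 0.0544 from edgeR). Me3, a mitochondrial malic enzyme, was higher in all model rats, at 40.9 to 50.9 CPM, than in all control rats, at 16.8 to 32.4 CPM (log2 fold change 0.88, FDR 0.149 from edgeR, 0.0221 from DESeq2). Of all genes tested, 11.1% were higher in this way. The DSS rats, at 17.8 to 36.7 CPM, were below all model rats (-0.64, FDR 0.575 from edgeR), as for 7.86% of all genes, and overlapped the control rats. With edgeR, 0 genes of this list passed for model against control (3 at an unadjusted p under 0.05, 0 with DESeq2) and 0 for DSS against control (3 at that p, and Me1 with DESeq2). For model against control the 3 genes were Me3, Mthfd2 and Mthfd1l. Mthfd2 had only 5 to 134 reads in a library and Mthfd1l only 3 to 21. The list's medians were 0.01, -0.20 and -0.24 for model against control, DSS against model and DSS against control.

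The list drawn up for enzymes that use NADPH held 23 measured genes, and it includes Aldh1a1, a dehydrogenase that works with NAD. Por, the reductase of the cytochrome P450 system, fell in the model group (log2 fold change -1.71, FDR 0.00282 from edgeR) and stayed lower in the DSS group against control (-1.36, FDR 0.000384). The call of Por in the model group was lost without control replicate 1, 2 or 3 (FDR 0.0234, 0.0221 and 0.0175) and without model replicate 3 (FDR 0.022). Fasn, the fatty acid synthase, fell in the DSS group against control (log2 fold change -4.02, FDR 0.00183), and without DSS replicate 2 its FDR was 0.0106. For DSS against model 0 genes of this list passed by edgeR, 7 had an unadjusted p under 0.05 and DESeq2 called 1, Fasn. The list's medians were -0.03, -0.04 and -0.05 in the same order of comparisons. Gsr, which regenerates reduced glutathione with NADPH, averaged 108 ± 14.0, 107 ± 5.70 and 92.3 ± 2.84 CPM in control, model and DSS rats.

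Fructose and glucose act in liver through a carbohydrate-response programme that includes glycolytic, fructolytic and lipogenic genes. The 11 genes tested from the list for it also included Mlx, Txnip and Arrdc4, which are none of these enzymes. Txnip and Arrdc4 overlapped between the groups in every comparison. For DSS against model all 11 had a negative log2 fold change, with a median of -0.95, and 3 of them passed. These were Pklr, the liver pyruvate kinase (-2.82), Tkfc, a triokinase of fructose breakdown (-2.39), and Scd, a fatty acid desaturase (-6.11). Leaving out DSS replicate 1 ended all 3 calls (FDR 0.0172, 0.0146 and 0.0311 from edgeR). The call of Pklr also ended without DSS replicate 2 or 3 or model replicate 3 (0.0103, 0.0211 and 0.0127), that of Tkfc without DSS replicate 3 (0.0105) and that of Scd without model replicate 1, 2 or 3 (0.0362, 0.0119 and 0.0149). With no filter on low counts Scd did not pass either (FDR 0.0116).

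For DSS against control 6 of the 11 passed, all lower, with a list median of -0.90. Pklr (-2.59), Tkfc (-2.55) and Acaca, an acetyl-CoA carboxylase (-2.32), passed with any 1 rat left out. Acly, the ATP citrate lyase (-2.89), lost its call without control replicate 1, 2 or 3 or DSS replicate 2 (FDR 0.0393, 0.0250, 0.0142 and 0.0372 from edgeR), and with no filter on low counts (0.0303). Scd (-6.51) lost it without control replicate 1, 2 or 3 or DSS replicate 1 (0.0231, 0.0206, 0.0182 and 0.0347), and with no filter on low counts (0.0169). Gpd1, the cytosolic glycerol-3-phosphate dehydrogenase (-0.90), lost it without DSS replicate 1, 2 or 3 or control replicate 2 or 3 (0.0163, 0.0106, 0.0140, 0.0168 and 0.0101), and with all 9 libraries in one fit (0.0339). For model against control 0 of 11 passed with edgeR, 1 had an unadjusted p under 0.05 and 0 passed with DESeq2.

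Of 10 NRF2 response genes, 0 passed in any comparison by edgeR. At an unadjusted p under 0.05 they gave 2, 1 and 4 genes for model against control, DSS against model and DSS against control. DESeq2 called 1, 0 and 1 of them, a different gene in each comparison with control. Osgin1 was called higher in model against control (log2 fold change 0.77, FDR 0.00107 from DESeq2). In DSS against control it was at 1.28 without a call (FDR 0.0775 from DESeq2). Nqo1 was called lower in DSS against control (-0.79, FDR 0.00233 from DESeq2). In model against control it was at -0.55 without a call (FDR 0.219 from DESeq2). Each of these genes thus had the same sign in both comparisons with control. The NRF2 list's median was 0.06 in each comparison.

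**Figure D4:**
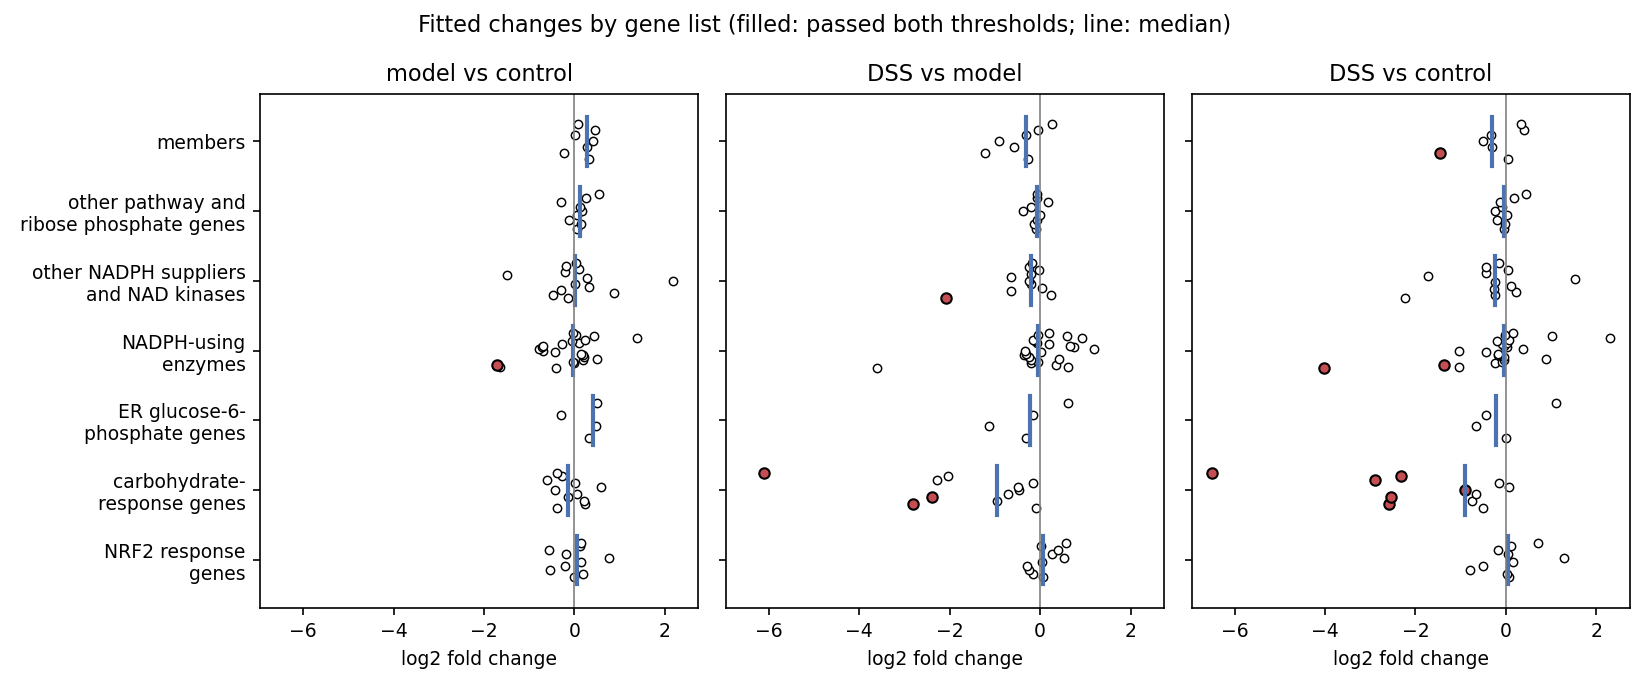
Log2 fold change (horizontal axis) of each tested gene of the members and of 6 gene lists, in each comparison. Filled points passed both thresholds and the line is the list's median; for DSS against model the median is -0.95 for the carbohydrate-response genes and -0.32 for the members.

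H6pd feeds NADPH to Hsd11b1, a reductase of glucocorticoids in the endoplasmic reticulum. Hsd11b1 was at 295, 527 and 495 CPM in the control rats, at 760, 511 and 585 CPM in the model rats and at 972, 755 and 1120 CPM in the DSS rats. All DSS rats were above all control rats, and the model rats overlapped both groups. Hsd11b1 had a log2 fold change of 1.11 for DSS against control (standard error 0.240, FDR 0.0328 from edgeR, 6.09e-05 from DESeq2). The list for glucose-6-phosphate in this compartment held 4 genes, Hsd11b1 among them, which does not itself handle glucose-6-phosphate. Of the 4, 0 passed by edgeR in any comparison, with 0, 2 and 2 at an unadjusted p under 0.05. Hsd11b1 was among these in both comparisons of the DSS group. DESeq2 called 0, 0 and 1 of the 4, and the gene called was Hsd11b1.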

How the data were processed

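Liver RNA of 9 rats was sequenced, 3 per group. The authors used HISAT2 for alignment and HTSeq 0.6.1 for unstranded counting, and the deposited values are raw counts per gene. The submitters' processing notes name the build Rnor_6.0. Genes overlapping on opposite strands can share reads. Groups come from the sample titles, and doses from the study's methods. A table of assembled transcripts was not used, since its unit is not stated.

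Each comparison was fitted on its 6 libraries with edgeR 4.0.16 (R 4.3.3), using filterByExpr, TMM (factors 0.871 to 1.14), robust glmQLFit and two-sided glmQLFTest with Benjamini-Hochberg adjustment. DESeq2 1.42.0 was an alternative, and the fits were tested on simulated data. Intervals are 95% intervals of the quasi-likelihood fit. Per the study's methods, the rats were kept under SPF conditions, and they were fasted and anaesthetized before the livers were taken. Neither the labels nor the methods say which rats shared a cage or were prepared together. The p-values therefore set the group differences against the spread between these samples. Between libraries of a group the chi-square per gene was 18.8 to 69.5, above the value near 1 that counting error gives, so none was counted as a repeat.

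The members and lists were chosen with earlier results of these data known. All members are named, as are list genes that passed in any comparison and the 5 genes most like the member with the largest fold between groups. Prpsap1, Idnk, Nadk, Me3, Mthfd2, Mthfd1l, Gsr, Hsd11b1, Nox4, Aldh1a1, Mlx, Txnip, Arrdc4, Osgin1 and Nqo1 were named after their values were seen. A gene of the list of further pathway genes is not reported here and is left out of the list counts. The alternatives were other scalings, filters, thresholds and samples in the fit, a replicate block and each rat left out. Of the listed symbols, Pgd, Tktl1, Tktl2, Prps1l1, Rpel1, Cbr1, Mlxipl and Srxn1 were not matched.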

Additional observations from a re-analysis of the deposited data

How the results depend on the processing

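Across the members, the call of Tkt in the DSS group against control held under every alternative run, and the count of members that passed changed only with DESeq2 in the DSS group against model (1, Tkt). The genes that passed among all genes tested, 10, 17 and 187 in the model group against control, the DSS group against model and the DSS group against control, depended on the setting. They were 71, 38 and 489 with no filter on low counts, 256, 147 and 769 with DESeq2, and 75, 57 and 804 at an FDR of 0.05. With all 9 libraries in the fit there were 25 and 113 in the comparisons with control, and with library size alone 11 in the DSS group against model. With each rat left out there were 0 to 10, 2 to 12 and 86 to 132, the 0 standing without control replicate 1, 2 or 3 (1129, 1213 and 1211 at an unadjusted p under 0.05). Of the 72 genes on the 6 lists together, 1, 4 and 8 passed. These became 6, 9 and 17 with DESeq2, and 2, 6 and 17 at an FDR of 0.05. In the model group against control 2 passed with no filter. With each rat left out, 0 to 1, 0 to 4 and 5 to 7 passed. The 0 for model against control stood without model replicate 3 or any control rat (13 to 15 at an unadjusted p under 0.05), and that for DSS against model without DSS replicate 1 (20 at that p).

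The replicate numbers did not pair the rats, since same-numbered rats had correlations of their deviations between -0.25 and -0.01. With the replicate number as a block, 0, 7 and 104 genes passed (1166 in the first comparison had an unadjusted p under 0.05), and 0, 3 and 6 of the list genes (13 in the first comparison at that p). The block ended the calls of Por in model against control (FDR 0.0599), Me1 in DSS against model (0.0126), and Acly and Gpd1 in DSS against control (0.0346 and 0.0151). It changed no call of a member.

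Library size alone shifted the median of all genes to -0.145 for model against control and -0.144 for DSS against control. It turned Rpe and Idh1 to -0.14 and -0.09 in the former, and Pgls in the latter to -0.10. Signs also turned with a rat left out. For model against control the ranges over the rats were -0.07 to 0.08 for Rpe, -0.05 to 0.15 for Idh1, -0.55 to 0.02 for Acaca and -0.47 to 0.27 for Me1. They were -0.16 to 0.03 for H6pd in DSS against model and -0.06 to 0.12 for Pgls in DSS against control. None of these was a called value. Depth limits Rpia most among the members, at 105 to 369 reads in a library.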

Other observations

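Nox4, an oxidase that spends NADPH to make reactive oxygen, averaged 12.7 ± 4.29, 33.1 ± 9.98 and 62.7 ± 32.8 CPM in control, model and DSS rats (SD, n = 3 rats). The model and the DSS rats were above all control rats. Against control its log2 fold change was 1.38 for model (FDR 0.101 from edgeR, 0.000701 from DESeq2) and 2.30 for DSS (FDR 0.0437 from edgeR, 2.95e-10 from DESeq2). Nox4 did not pass by edgeR.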
